A study of Mus musculus with 90 samples.

Results

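The Cyp4a and acyl-CoA thioesterase genes described here are 10 genes chosen by name, 6 of the Cyp4a family (Cyp4a10, Cyp4a14, Cyp4a31, Cyp4a32, Cyp4a12a and Cyp4a12b) and 4 of the type I acyl-CoA thioesterases (Acot1, Acot2, Acot3 and Acot4), out of 24475 genes in each count table. All 10 passed the filter on low counts in both experiments. They were measured by RNA-seq of mouse liver in 90 libraries, as 9 groups of 10. The mice had been injected with a liver-tropic adeno-associated virus (AAV8) carrying an shRNA, a hairpin that silences its target. Experiment 1 held 5 groups: a control, whose label does not say what its vector carried, Gcgr KD (knockdown of the glucagon receptor), Gnas KD (the stimulatory G protein alpha subunit that couples the receptor to cAMP), PKA KD (protein kinase A, the main cAMP effector) and Epac2 KD (a second cAMP effector, encoded by Rapgef4). Experiment 2 crossed a control AAV or Prkar1a KD, which removes a regulatory subunit that restrains PKA, with a control antibody or an antibody that blocks the glucagon receptor (Gcgr mAb), in 4 groups. All 4 groups of experiment 2, controls included, thus had both a vector and an antibody. The sources used here give no strain, sex or age of the mice, no hairpin sequence, promoter or dose, and the PKA KD label names no subunit. Whether each of the 10 numbered samples of a group is its own animal is left unsaid in the labels, so the spread behind every p-value is that of the samples and may in part be technical.

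Cyp4a enzymes are cytochrome P450s of the endoplasmic reticulum that hydroxylate the far end (the omega carbon) of fatty acids, the first step of omega oxidation, which makes dicarboxylic acids for peroxisomal breakdown. The Acot enzymes hydrolyse acyl-CoA to free fatty acid and CoA, Acot1 in the cytosol, Acot2 in mitochondria, and Acot3 and Acot4 in peroxisomes, where Acot4 prefers succinyl-CoA. Cyp4a10, Cyp4a14 and the Acot genes are textbook targets of PPARα, the fatty acid receptor that drives the fasting response of the liver, whereas Cyp4a12a and Cyp4a12b are known for higher expression in male than in female mice under the control of growth hormone and androgens.

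The genes form a pair of clusters, and their sequences set how far their counts can be told apart. In GRCm38 the Cyp4a members lie on chromosome 4: Cyp4a12a at chr4:115299046-115332815, Cyp4a12b at chr4:115411624-115439034, Cyp4a14 on the minus strand at chr4:115486200-115496158, Cyp4a10 at chr4:115518287-115533649, Cyp4a31 at chr4:115563627-115579015 and Cyp4a32 at chr4:115600927-115622507, the last 3 and the Cyp4a12 pair on the plus strand. The Acot members lie on the plus strand of chromosome 12: Acot2 at chr12:83987861-83993877, Acot1 at chr12:84009502-84017670, Acot4 at chr12:84037254-84044723 and Acot3 at chr12:84052144-84060400. Coding sequences of Cyp4a12a and Cyp4a12b differed at 23 of 1524 aligned bases (98.5% identity), and Cyp4a10 shared 97.2% with Cyp4a32 and 96.6% with Cyp4a31. Of the 50-base words in the transcripts of Cyp4a12a, 48.9% also occurred in another member, against 43.8% for Cyp4a32, 29.8% for Cyp4a10, 19% for Cyp4a31, 27.6% for Acot2, 17.2% for Acot1, 5.98% for Acot3, 2.82% for Acot4 and 0 for Cyp4a14. Cyp4a14, Acot3 and Acot4 thus share few or none of these words with the other members. Genes outside the list were not compared, so sharing with those is unknown. The sources used here do not say how the authors' counting split reads between close copies, and the counts of the Cyp4a12 pair, of the Cyp4a10, Cyp4a31 and Cyp4a32 trio and of Acot1 and Acot2 are uncertain to that extent.

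The following stretches of 60 coding bases show where copies whose counts changed differently below can be told apart; each is the stretch of its pair, within 1 exon, that holds the most differences. They are printed 5′ to 3′ on the coding strand from GRCm38, with the bases that differ within each pair in capitals. Cyp4a12a is from chr4:115326628-115326687 and Cyp4a12b from chr4:115432881-115432940, with 4 differences. Cyp4a10 is from chr4:115518427-115518486 and Cyp4a31 from chr4:115563822-115563881, with 6. Acot1 is from chr12:84016942-84017001 and Acot2 from chr12:83992664-83992723, with 13.
Cyp4a12a: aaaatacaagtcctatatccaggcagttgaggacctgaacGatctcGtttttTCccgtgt
Cyp4a12b: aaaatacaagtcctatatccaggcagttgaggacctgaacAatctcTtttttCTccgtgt
Cyp4a10: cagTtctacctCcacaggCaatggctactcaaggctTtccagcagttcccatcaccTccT
Cyp4a31: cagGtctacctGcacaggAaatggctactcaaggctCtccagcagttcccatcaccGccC
Acot1: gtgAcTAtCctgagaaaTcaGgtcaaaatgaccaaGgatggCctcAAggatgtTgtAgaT
Acot2: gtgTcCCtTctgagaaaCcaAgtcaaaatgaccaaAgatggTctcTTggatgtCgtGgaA

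PPARα with its partner RXR binds a direct repeat of AGGTCA spaced by a single base, AGGTCANAGGTCA. The 250 bases before the start were at hand from RefSeq (GRCm38.p6) for 5 members (Cyp4a32, Acot1, Acot2, Acot3 and Acot4) and were searched on both strands with up to 2 mismatches, a search that finds a match in 3.24% of 32851 mouse promoters and an exact match in 0.0335%. Acot4 alone of the 5 had a match, on the minus strand, in capitals at the end of this stretch of the plus strand, chr12:84038129-84038378, which ends at a RefSeq start inside the annotated span of the gene.
Acot4 promoter: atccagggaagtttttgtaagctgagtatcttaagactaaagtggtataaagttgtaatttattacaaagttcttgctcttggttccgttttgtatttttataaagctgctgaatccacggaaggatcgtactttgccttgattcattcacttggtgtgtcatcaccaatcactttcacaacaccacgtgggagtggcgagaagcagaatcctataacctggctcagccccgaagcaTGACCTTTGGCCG
The match is a description of the letters and says nothing of binding, which was not measured.

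Levels are given as CPM, counts per 1e6 counts of the library, scaled by TMM, and changes as log2 fold changes ± SE from edgeR's quasi-likelihood test over all groups of an experiment, with n = 10 per group and a gene called at an adjusted p under 0.05. Total counts were 20.8 M to 33.7 M per library in experiment 1 and 8.87 M to 19.5 M in experiment 2. The member with the fewest counts, Acot3 with Gnas KD, had a mean of 29 counts per library. Single libraries held less of it, down to 0.129 CPM with Gnas KD and 0.227 CPM with Gcgr KD. All 7 hepatocyte markers were present, with a summed level of 67107 to 121792 CPM over the libraries of experiment 1. The 5 kidney tubule markers, checked because the kidney also expresses Cyp4a12, summed to at most 0.267 CPM in any library of either experiment, and the 5 adipocyte markers to at most 29.7 CPM. Each hairpin lowered its target: the log2 change was -1.91 ± 0.10 for Gcgr, -2.80 ± 0.11 for Gnas, -3.06 ± 0.13 and -2.06 ± 0.09 for Prkaca and Prkacb with PKA KD, -3.27 ± 0.18 for Rapgef4 with Epac2 KD and -1.94 ± 0.06 for Prkar1a. Some of these genes also moved under another hairpin. Prkar1a was called lower with Gcgr KD (-0.18 ± 0.04) and PKA KD (-0.28 ± 0.04), and Gcgr with PKA KD (-0.26 ± 0.10). With Prkar1a KD and the control antibody, Gcgr lay at 108 to 139 CPM against 145 to 192 CPM in controls. Rapgef4 lay there at 112 to 191 CPM against 55.4 to 98.6 CPM. Of the 90 libraries, 5 stood apart from their group across all genes (PKA KD replicates 3 and 5, Epac2 KD replicate 7, Control AAV + Control mAb replicate 10 and Control AAV + Gcgr mAb replicate 2), and results that change without them are given with both values.

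Per kilobase of exon, Cyp4a14 and Cyp4a10 were the most abundant members in the control liver and Cyp4a31 the least. In the experiment 1 controls the levels were 168 ± 102 CPM per kilobase (mean ± SD) for Cyp4a14, 156 ± 70 for Cyp4a10, 65.9 ± 18.5 for Cyp4a12a, 20.6 ± 4.91 for Cyp4a32 and 10.7 ± 10.4 for Cyp4a12b. The thioesterases followed at 7.94 ± 2.18 for Acot1, 5.11 ± 1.68 for Acot2, 3.3 ± 2.33 for Acot3 and 2.91 ± 0.911 for Acot4, with Cyp4a31 last at 2.14 ± 1.05 CPM per kilobase. Neighbours in this order overlapped over the libraries except Cyp4a12a and Cyp4a32. In the experiment 2 controls the order kept Cyp4a14 (192 ± 56), Cyp4a10 (163 ± 25.7), Cyp4a12a (38.5 ± 33) and Cyp4a32 (23.2 ± 5.08) on top and Cyp4a31 (2.6 ± 0.653) at the bottom, with Cyp4a12b at 4.16 ± 4.43, below the 4 Acot genes. There Cyp4a10 did not overlap Cyp4a12a, nor Cyp4a32 the next gene, Acot1. The tables were scaled separately, so no level is tested across experiments.

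**Figure D1:**
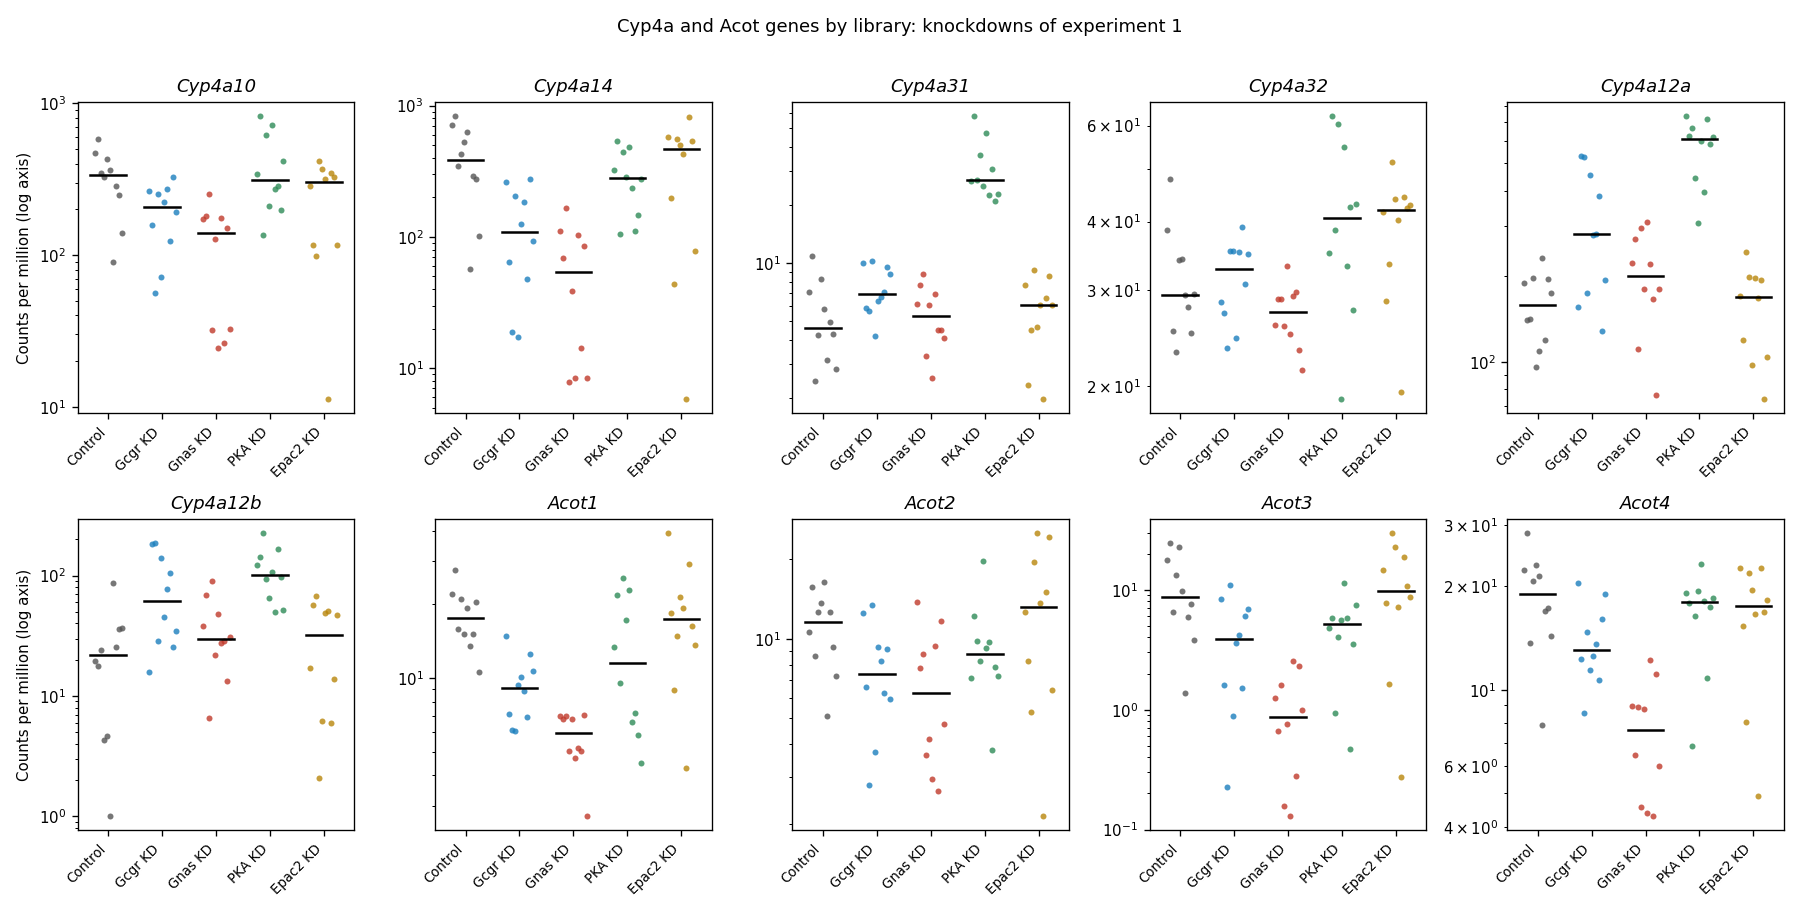
CPM (log axis) of each gene in every library of experiment 1, 1 panel per gene and 10 points per group, with a bar at the group median. The Cyp4a31 and Cyp4a12a points of PKA KD (20.9 to 57.4 and 309 to 733 CPM) lie above all control points, and the Acot1 points of Gnas KD (2.72 to 7.08 CPM) below all of them.

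The 4 knockdowns of experiment 1 were each compared with the same control group, so their values below share those 10 libraries. With Gcgr KD both Cyp4a12 genes rose and Acot1 fell, so that 2 members were called higher and 1 lower of 10, against 7.23% of all 13574 genes tested. The median change of the members was -0.47, against 0.01 over all genes. Cyp4a12a lay at 95.8, 159 and 232 CPM (lowest, median and highest library) in controls and at 129, 281 and 531 CPM with Gcgr KD, where 6 of 10 libraries exceeded all controls (0.96 ± 0.24, adjusted p = 0.00838). Cyp4a12b went from 1, 21.9 and 87.1 CPM to 15.9, 61.3 and 188 CPM, with 4 of 10 libraries above all controls (1.72 ± 0.56, adjusted p = 0.0494). That call was lost without the count filter (adjusted p = 0.0704) and in a fit of these groups alone (0.0916). The cytosolic thioesterase Acot1 went from 10.6, 17.5 and 27.6 CPM to 6.08, 9.11 and 14.8 CPM, with 7 of 10 libraries below all controls (-0.96 ± 0.28, adjusted p = 0.0234).

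Cyp4a14 had a larger but less certain difference. Its controls lay at 57.3, 385 and 829 CPM and its Gcgr KD libraries at 17.3, 109 and 275 CPM, all 10 under the control median but only 3 under the lowest control (-1.70 ± 0.60, adjusted p = 0.0779). Without the 3 libraries of experiment 1 that stood apart, none of them from these groups, the error was 0.56 and the adjusted p 0.0485, and DESeq2 also called the gene (0.0346). Acot3 at -1.34 ± 0.54 (adjusted p = 0.125), Cyp4a10 at -0.76 ± 0.44 (0.323), Acot2 at -0.52 ± 0.32 (0.356), Acot4 at -0.42 ± 0.22 (0.265), Cyp4a31 at 0.47 ± 0.25 (0.277) and Cyp4a32 at -0.00 ± 0.15 (0.994) were not called.

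With Gnas KD the group medians of Cyp4a10, Cyp4a14 and all 4 Acot genes were the lowest of the 5 groups of experiment 1. Of the 10 members, 0 were higher and 5 lower (Cyp4a10, Cyp4a14, Acot1, Acot3 and Acot4), against 15.2% of all genes called, with a median change of -0.99 for the members and 0.01 for all genes. The remaining members were Acot2, Cyp4a31, Cyp4a32 and the Cyp4a12 pair. Cyp4a14 lay at 7.78, 53.6 and 167 CPM with Gnas KD against 57.3, 385 and 829 CPM in controls, with 5 of 10 libraries below every control (-2.77 ± 0.63, a 6.84-fold lower level, adjusted p = 0.00161). Its neighbour Cyp4a10 lay at 24.5, 139 and 253 CPM against 89.4, 338 and 580 CPM, with 4 libraries below every control (-1.48 ± 0.45, adjusted p = 0.0197). Ranges of both genes still overlapped the controls.

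The thioesterases fell with Gnas KD in 3 of 4 cases. Acot3, a peroxisomal enzyme for long-chain acyl-CoA, went from 1.38, 8.65 and 24.5 CPM to 0.129, 0.877 and 2.54 CPM, a 10.5-fold lower level (-3.39 ± 0.61, adjusted p = 8.35e-05), with 7 of 10 libraries below all controls. Acot1 lay at 2.72, 5.97 and 7.08 CPM, below the lowest control (10.6 CPM) in all 10 libraries (-1.65 ± 0.28, adjusted p = 4.35e-05). Acot4 went from 7.88, 19 and 28.4 CPM to 4.29, 7.62 and 12.2 CPM, with 5 libraries below all controls (-1.30 ± 0.23, adjusted p = 5.36e-05). Mitochondrial Acot2, at 2.66, 6.25 and 13.8 CPM against 5.12, 11.6 and 16.5 CPM, was not called (-0.68 ± 0.33, adjusted p = 0.16). Cyp4a31 (0.02 ± 0.25, adjusted p = 0.975), Cyp4a32 (-0.22 ± 0.15, 0.372), Cyp4a12a (0.35 ± 0.24, 0.355) and Cyp4a12b (0.54 ± 0.55, 0.564) were not called either. Stellate cell markers moved beside these genes: 4 of 7 rose, with a summed level of 306 to 752 CPM against 249 to 486 CPM in controls. Cfd, the only 1 of 5 adipocyte markers that passed the count filter, fell with Gcgr KD (-1.91 ± 0.53), Gnas KD (-2.21 ± 0.53) and PKA KD (-3.75 ± 0.59). In experiment 2 it was called higher with Gcgr mAb in the control AAV liver (1.35). The part of these markers in the results was not tested. In whole liver, fewer cells of a type and less RNA per cell cannot be told apart.

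PKA KD gave a different set of calls. With it 4 members were higher and 0 lower, the 4 all of the Cyp4a family, against 32.4% of all genes called, a share near that of the members, and the median change of the members was 0.07. Cyp4a31 made the largest step: 2.44, 4.61 and 10.8 CPM in controls and 20.9, 26.8 and 57.4 CPM with PKA KD, with no overlap (2.55 ± 0.26, a 5.86-fold higher level, adjusted p = 3.57e-11). Cyp4a12a lay at 309, 611 and 733 CPM against at most 232 CPM in controls, again with no overlap (1.84 ± 0.25, adjusted p = 6.19e-08). Cyp4a12b lay at 50.1, 102 and 224 CPM, with 7 of 10 libraries above all controls (2.12 ± 0.57, adjusted p = 0.00271).

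Cyp4a32 rose by little, from 23.1, 29.4 and 47.9 CPM to 18.9, 40.6 and 62.4 CPM with overlapping ranges (0.40 ± 0.15, adjusted p = 0.037), and the call was lost without the count filter (0.0581), with limma-voom (0.077) and in a fit of these groups alone (0.0909). Cyp4a14 stayed within the control range at 105, 282 and 535 CPM (-0.50 ± 0.59, adjusted p = 0.562), and Cyp4a10 lay at 136, 313 and 822 CPM (0.29 ± 0.44, 0.662). No Acot gene was called: Acot1 lay at 4.51, 11.5 and 25.7 CPM (-0.42 ± 0.27, adjusted p = 0.254) and Acot3 at 0.467, 5.2 and 11.3 CPM (-1.19 ± 0.53, 0.0844), while Acot2 (-0.24 ± 0.32, 0.618) and Acot4 (-0.15 ± 0.22, 0.649) differed less. Ppara itself, the gene of the receptor, went from 319, 453 and 571 CPM to 129, 174 and 263 CPM with PKA KD, without overlap (-1.16 ± 0.12, adjusted p = 5.12e-11), while with Gnas KD it was not called (-0.30 ± 0.12, adjusted p = 0.0805).

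With Epac2 KD no member was called, against 4.56% of all genes, and 0 of the 10 had an unadjusted p under 0.05 in edgeR. DESeq2 and limma-voom called 0 members as well, and the median change was 0.07 for the members and 0.02 for all genes. The differences ran from -0.45 ± 0.44 for Cyp4a10 to 0.31 ± 0.55 for Cyp4a12b. Wide spread limits this comparison: Cyp4a14 lay at 5.8, 464 and 822 CPM with Epac2 KD, and its lowest library, replicate 7, stood apart across all genes. That library was also the lowest of its group in Cyp4a10 (11.2 CPM), Acot1 (4.27 CPM) and Acot3 (0.274 CPM).

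**Figure D2:**
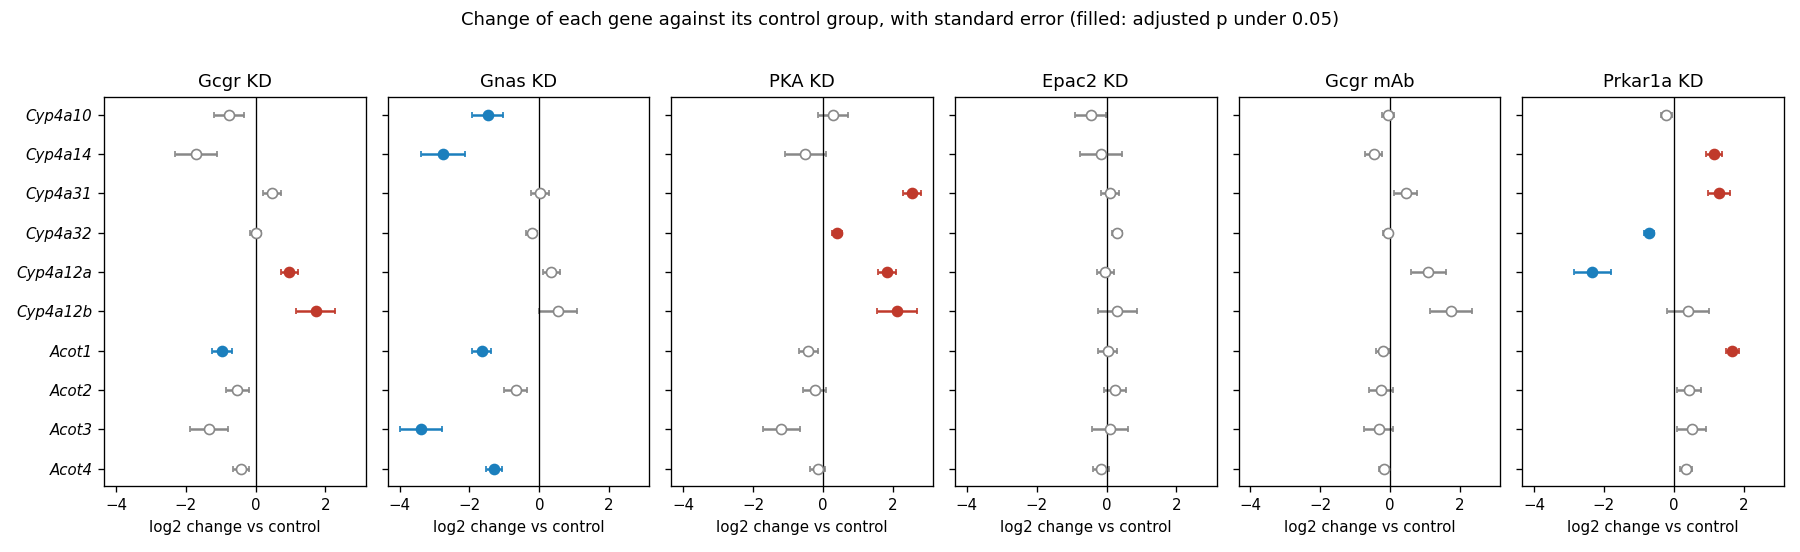
log2 change of each gene against its control group with its standard error, 1 panel per treatment; filled points were called at an adjusted p under 0.05 (red higher, blue lower), open points were not. All filled points of Gnas KD are blue, Cyp4a14 (-2.77) and Acot3 (-3.39) among them. Those of PKA KD are red: Cyp4a31, Cyp4a32 and the Cyp4a12 pair. The Cyp4a12 pair is also red with Gcgr KD, where Acot1 is blue, and Cyp4a31 is also red with Prkar1a KD. With Prkar1a KD Cyp4a12a (-2.33) and Acot1 (1.68) go opposite ways.

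The knockdowns were also tested directly against each other, with the same groups as above. PKA KD against Gnas KD gave 9 members higher and 0 lower, all but Acot2 (0.44 ± 0.33, adjusted p = 0.307), against 34% of all genes called. The differences were 2.53 ± 0.26 for Cyp4a31, 2.27 ± 0.62 for Cyp4a14, 2.20 ± 0.60 for Acot3, 1.77 ± 0.46 for Cyp4a10 and 1.48 ± 0.25 for Cyp4a12a. Acot1 (1.23 ± 0.28), Acot4 (1.14 ± 0.23), Cyp4a12b (1.58 ± 0.55) and Cyp4a32 (0.62 ± 0.15) completed the set, with adjusted p-values of at most 0.0235. Acot3 was not called there by limma-voom (2.30 ± 1.06, adjusted p = 0.0848). The median was 1.53 for the members and -0.01 for all genes.

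PKA KD against Gcgr KD gave 3 members higher and 0 lower, against 31.7% of all genes called: Cyp4a31 (2.08 ± 0.25, adjusted p = 4.91e-09, no overlap), Cyp4a12a (0.87 ± 0.24, 0.00454) and Cyp4a32 (0.41 ± 0.15, 0.0363). The Cyp4a32 call was lost without the count filter (0.0589), with limma-voom (0.0851) and in a fit of these groups alone (0.0746). Cyp4a10 missed the threshold (1.05 ± 0.45, adjusted p = 0.0656) and passed it without the libraries that stood apart (1.25 ± 0.42, 0.0162), with DESeq2 (0.0493) and in a fit of these groups alone (0.0319). Gnas KD against Gcgr KD gave 0 higher and 2 lower, Acot3 (-2.05 ± 0.60, adjusted p = 0.0306) and Acot4 (-0.88 ± 0.23, adjusted p = 0.0102), against 5.84% of all genes. The Acot3 call was lost with limma-voom (adjusted p = 0.35). For Cyp4a14 the difference of those groups was -1.08 ± 0.60 (adjusted p = 0.363) and for Acot1 -0.69 ± 0.28 (0.167), which was called in a fit of those groups alone (-0.69 ± 0.18, 0.0208).

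**Figure D3:**
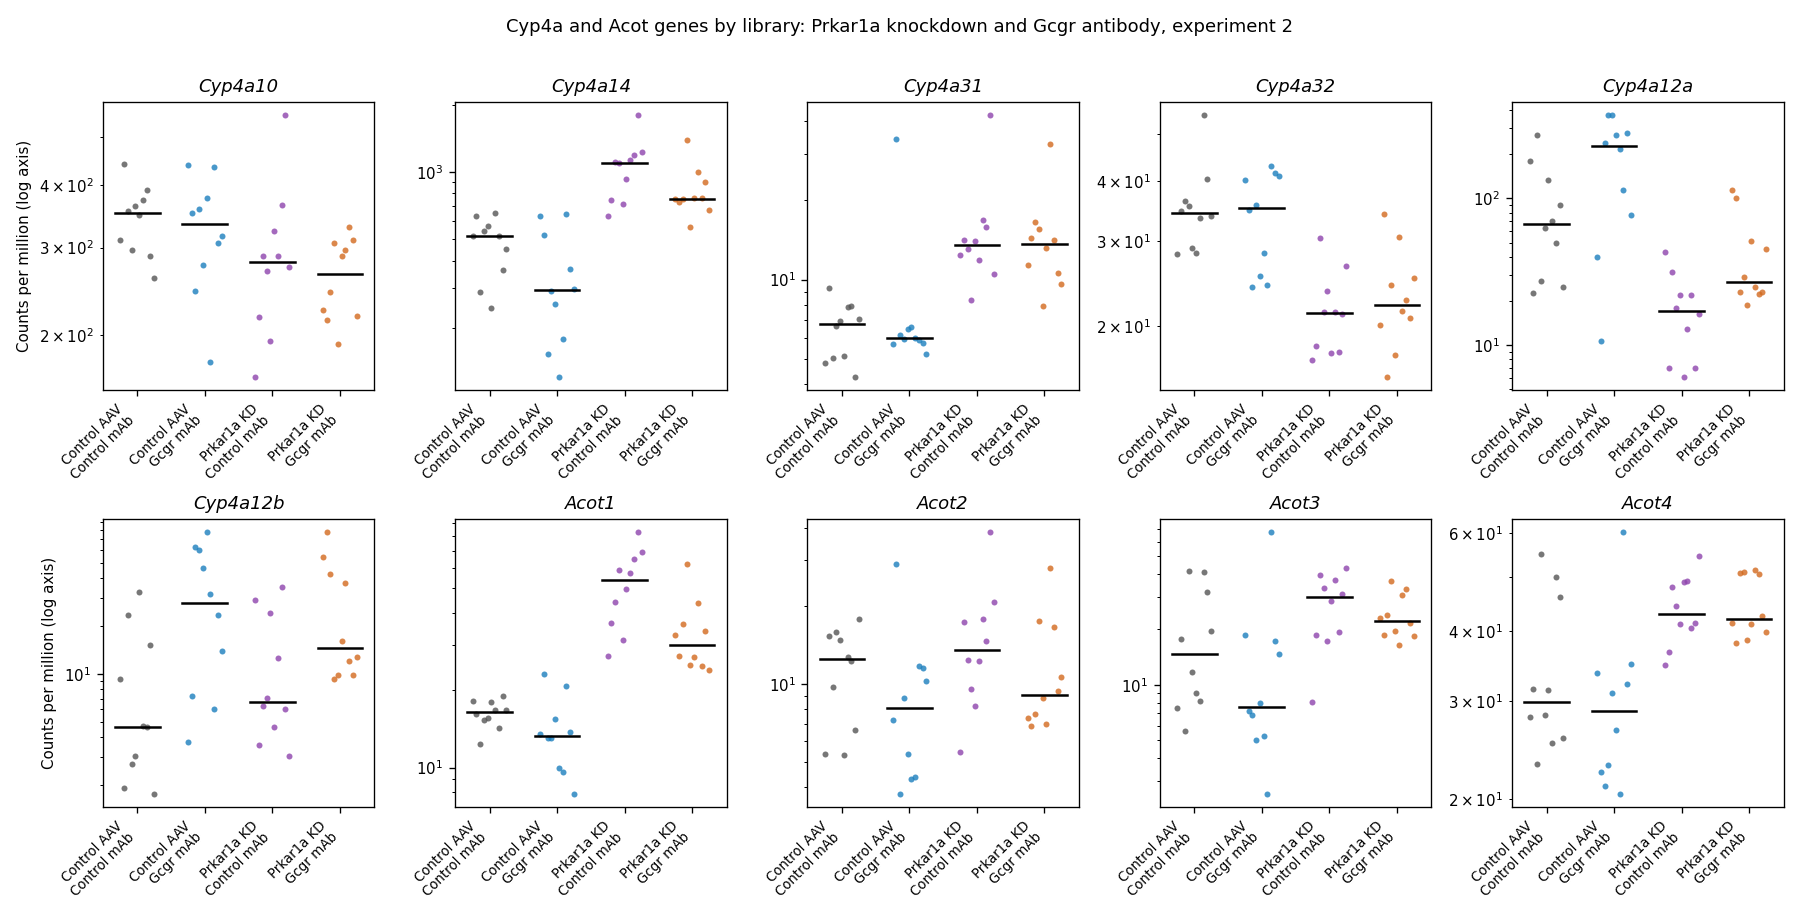
CPM (log axis) of each gene in every library of experiment 2, 1 panel per gene and 10 points per group, with a bar at the group median. Acot1 with Prkar1a KD (27.1 to 82.5 CPM with the control antibody) lies above all points of the control group (12.4 to 19 CPM), and Cyp4a12a lies below most of them.

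The antibody against the glucagon receptor, given with the control AAV, left no member called, against 8.19% of all genes. Of the 10 members, 2 had an unadjusted p under 0.05 in edgeR, both of the Cyp4a12 pair, DESeq2 called 1 (Cyp4a12b, adjusted p = 0.0289) and limma-voom 0. Cyp4a12b lay at 1.76, 4.67 and 32.6 CPM with the control antibody and at 3.75, 27.8 and 77.5 CPM with Gcgr mAb, with 4 of 10 libraries above all controls (1.74 ± 0.60, adjusted p = 0.0669). Cyp4a12a went from 22.7, 66.9 and 269 CPM to 10.7, 227 and 369 CPM (1.09 ± 0.50, adjusted p = 0.177). Gcgr KD in experiment 1 gave 0.96 ± 0.24 for Cyp4a12a and 1.72 ± 0.56 for Cyp4a12b. The difference between experiments was not tested. Cyp4a14 lay at 120, 295 and 647 CPM against 244, 517 and 654 CPM (-0.47 ± 0.24, adjusted p = 0.235), and Acot1 differed by -0.21 ± 0.19 (0.542). Among cell markers, Cfd rose (1.35), as did 1 of 6 Kupffer cell and 1 of 5 endothelial ones. Of the 7 hepatocyte markers 1 fell, and 0 of 7 stellate and 0 of 4 cholangiocyte markers changed. The part of these markers was not tested.

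Prkar1a KD moved members of the Cyp4a family in opposite directions. With the control antibody 3 members rose (Cyp4a14, Cyp4a31 and Acot1) and 2 fell (Cyp4a32 and Cyp4a12a), against 56.2% of all genes called, so the count of 5 among 10 is near the background. Acot1 lay at 12.4, 16.4 and 19 CPM in controls and at 27.1, 53.6 and 82.5 CPM with Prkar1a KD, without overlap (1.68 ± 0.19, adjusted p = 1.09e-09). Cyp4a14 went from 244, 517 and 654 CPM to 635, 1101 and 1797 CPM, with 9 of 10 libraries above all controls (1.15 ± 0.24, adjusted p = 0.000122). Cyp4a31 went from 4.27, 6.81 and 9.32 CPM to 8.37, 13.6 and 42.1 CPM, again with 9 of 10 above (1.29 ± 0.31, adjusted p = 0.000686).

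The falls were in the other Cyp4a genes. Cyp4a12a dropped from 22.7, 66.9 and 269 CPM to 6.06, 17.1 and 43 CPM, with 8 of 10 libraries below all controls (-2.33 ± 0.53, a 5.01-fold lower level, adjusted p = 0.000292). Cyp4a32 went from 28.2, 34.2 and 54.7 CPM to 17, 21.3 and 30.4 CPM, with 9 of 10 below (-0.72 ± 0.14, adjusted p = 2.09e-05). Cyp4a12b, the near-identical copy, was not called at 3.05, 6.71 and 35 CPM against 1.76, 4.67 and 32.6 CPM (0.41 ± 0.60, adjusted p = 0.592). Nor were Acot4 (0.35 ± 0.16, adjusted p = 0.0531), Acot3 (0.51 ± 0.42, 0.309), Acot2 (0.43 ± 0.34, 0.287) and Cyp4a10 (-0.22 ± 0.16, 0.228), though limma-voom called Acot4 (0.41 ± 0.15, 0.0199). Hepatocyte markers moved with this treatment: 1 of 7 rose and 5 fell, and their summed level lay at 30672 to 43750 CPM against 72092 to 84349 CPM in controls. None of the 7 was at 0 in a whole group. Of the markers of other cells, 3 of 7 stellate and 2 of 5 endothelial ones fell, as did Cfd (-6.99 ± 0.72), the adipocyte marker that passed the count filter, while 0 of 6 Kupffer cell and 0 of 4 cholangiocyte markers changed. The stellate sum lay at 225 to 340 CPM against 284 to 422 CPM, the endothelial at 44.8 to 118 CPM against 58.8 to 139 CPM and the adipocyte at 0 to 0.887 CPM against 1.7 to 16.4 CPM. Ppara fell as well (-1.06 ± 0.12, adjusted p = 4.91e-10). The part of these genes in the members' changes was not tested.

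In the Prkar1a KD liver the antibody called no gene at all (0% of 12847 tested; 846 genes at an unadjusted p under 0.05 in edgeR, 1018 in DESeq2 and 790 in limma-voom, with 0 called by each). Of the members, 2 had an unadjusted p under 0.05. Acot1 lay at 23.9, 29.9 and 61.9 CPM with Gcgr mAb against 27.1, 53.6 and 82.5 CPM with the control antibody. Of its Gcgr mAb libraries, 5 of 10 lay below all those with the control antibody (-0.63 ± 0.18, p = 0.00138 in edgeR, adjusted p = 0.447). Cyp4a12a lay at 18.8, 26.9 and 114 CPM against 6.06, 17.1 and 43 CPM (1.28 ± 0.52, adjusted p = 0.641). The interaction, which tests whether the antibody acts otherwise in the Prkar1a KD than in the control liver, called no member and 4.08% of all genes, with 0 members at an unadjusted p under 0.05 in edgeR and 0 called by DESeq2 and by limma-voom. Its values ran from -0.66 ± 0.83 for Cyp4a12b to 0.19 ± 0.71 for Cyp4a12a, which are also the members with the widest errors.

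With the antibody present on both sides, Prkar1a KD gave 4 members higher (Cyp4a14 1.26 ± 0.24, Acot1 1.26 ± 0.19, Cyp4a31 0.72 ± 0.31 and Acot4 0.55 ± 0.16) and 2 lower (Cyp4a12a -2.14 ± 0.52 and Cyp4a32 -0.55 ± 0.14), against 53.1% of all genes. Beside these, 1 of 7 hepatocyte markers rose and 5 fell, and 4 of 6 Kupffer cell, 5 of 7 stellate, 4 of 5 endothelial and 1 of 4 cholangiocyte markers fell, as did Cfd (-6.99 ± 0.61). Their part was not tested. Acot1 again had no overlap, at 23.9 CPM or more against at most 23.2 CPM. The Cyp4a31 call (adjusted p = 0.0462) was lost without the count filter (0.0594) and in a fit of these groups alone (0.0974), whereas without the libraries that stood apart, among them Control AAV + Gcgr mAb replicate 2 at 34.2 CPM, the change was 1.29 ± 0.24 (adjusted p = 2.04e-05). Acot3 was not called (0.66 ± 0.42, adjusted p = 0.191) but was with limma-voom (1.25 ± 0.40, 0.00841). Prkar1a KD with Gcgr mAb against neither treatment gave 5 higher and 2 lower, against 50.2% of all genes. Those higher were Acot1 (1.05 ± 0.19), Cyp4a31 (1.16 ± 0.32), Cyp4a14 (0.80 ± 0.24), Cyp4a12b (1.48 ± 0.60, adjusted p = 0.0397) and Acot4 (0.37 ± 0.16, 0.0446), and those lower Cyp4a32 (-0.61 ± 0.14) and Cyp4a10 (-0.38 ± 0.16, 0.0383). Without the libraries that stood apart, Cyp4a12b (1.34 ± 0.61, 0.0625) and Acot4 (0.33 ± 0.16, 0.0792) lost their calls and Cyp4a12a (-1.16 ± 0.46, 0.0345) gained one. Without the count filter Cyp4a12b (0.0554), Acot4 (0.0577) and Cyp4a10 (0.0597) were not called, nor was Acot4 with RLE scaling (0.051).

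Shares within a library, which no scaling between libraries can move, show how the make-up of each family shifted. A share of 4 members was compared with the control in 6 comparisons, 24 two-sided permutation tests with 100000 resamples, adjusted together; they were added after the levels had been seen. Cyp4a14 held 39.2 ± 13.8% of the summed Cyp4a CPM in the experiment 1 controls (mean ± SD, n = 10). It held 17.3 ± 12.7% with Gcgr KD (permutation test, adjusted p = 0.00737), 12.3 ± 9.8% with Gnas KD (0.0012) and 19.9 ± 7.57% with PKA KD (0.00477). With Gcgr KD and PKA KD the level of Cyp4a14 was not called, and Cyp4a12a in the denominator held 40.6% and 41% of the sum, against 20% in controls. In experiment 2 the share was 49 ± 10.9% in controls and 74.2 ± 2.63% with Prkar1a KD, where all 10 libraries exceeded all controls (permutation test, adjusted p = 0.00024). Gcgr mAb gave 35 ± 14.6% (adjusted p = 0.0609), and Epac2 KD 36.8 ± 19.6% (0.79).

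Cyp4a31 rose as a share of the Cyp4a10, Cyp4a31 and Cyp4a32 trio under 4 treatments. From 1.54 ± 0.486% in controls it reached 3.54 ± 1.27% with Gcgr KD, 4.36 ± 1.75% with Gnas KD and 7.52 ± 2.59% with PKA KD, and from 1.69 ± 0.358% it reached 4.75 ± 1.44% with Prkar1a KD (permutation tests, adjusted p = 0.00024 each). All 10 libraries of PKA KD and of Prkar1a KD exceeded all controls. With Gcgr KD and Gnas KD the level of Cyp4a31 itself was not called, and the denominator is mostly Cyp4a10, 88.2% in controls and 69.8% with Gnas KD.

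Within the Cyp4a12 pair the share of Cyp4a12b was 12.1 ± 8.14% in the experiment 1 controls and 14.3% to 18.7% under the 4 knockdowns, with adjusted p-values from 0.0879 to 0.541. Prkar1a KD was the exception: 38.9 ± 15.1% against 9 ± 4.67%, with 8 of 10 libraries above all controls (permutation test, adjusted p = 0.000343). The copies, whose sequences appear above, thus did not keep their ratio there, within the limit that reads common to both may have been split between them. Acot3 fell as a share of the 4 Acot genes with Gnas KD, from 17.1 ± 7.85% to 4.41 ± 2.66% (permutation test, adjusted p = 0.00024), and not detectably with Gcgr KD (10.8%, 0.113) or PKA KD (10.4%, 0.079).

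**Figure D4:**
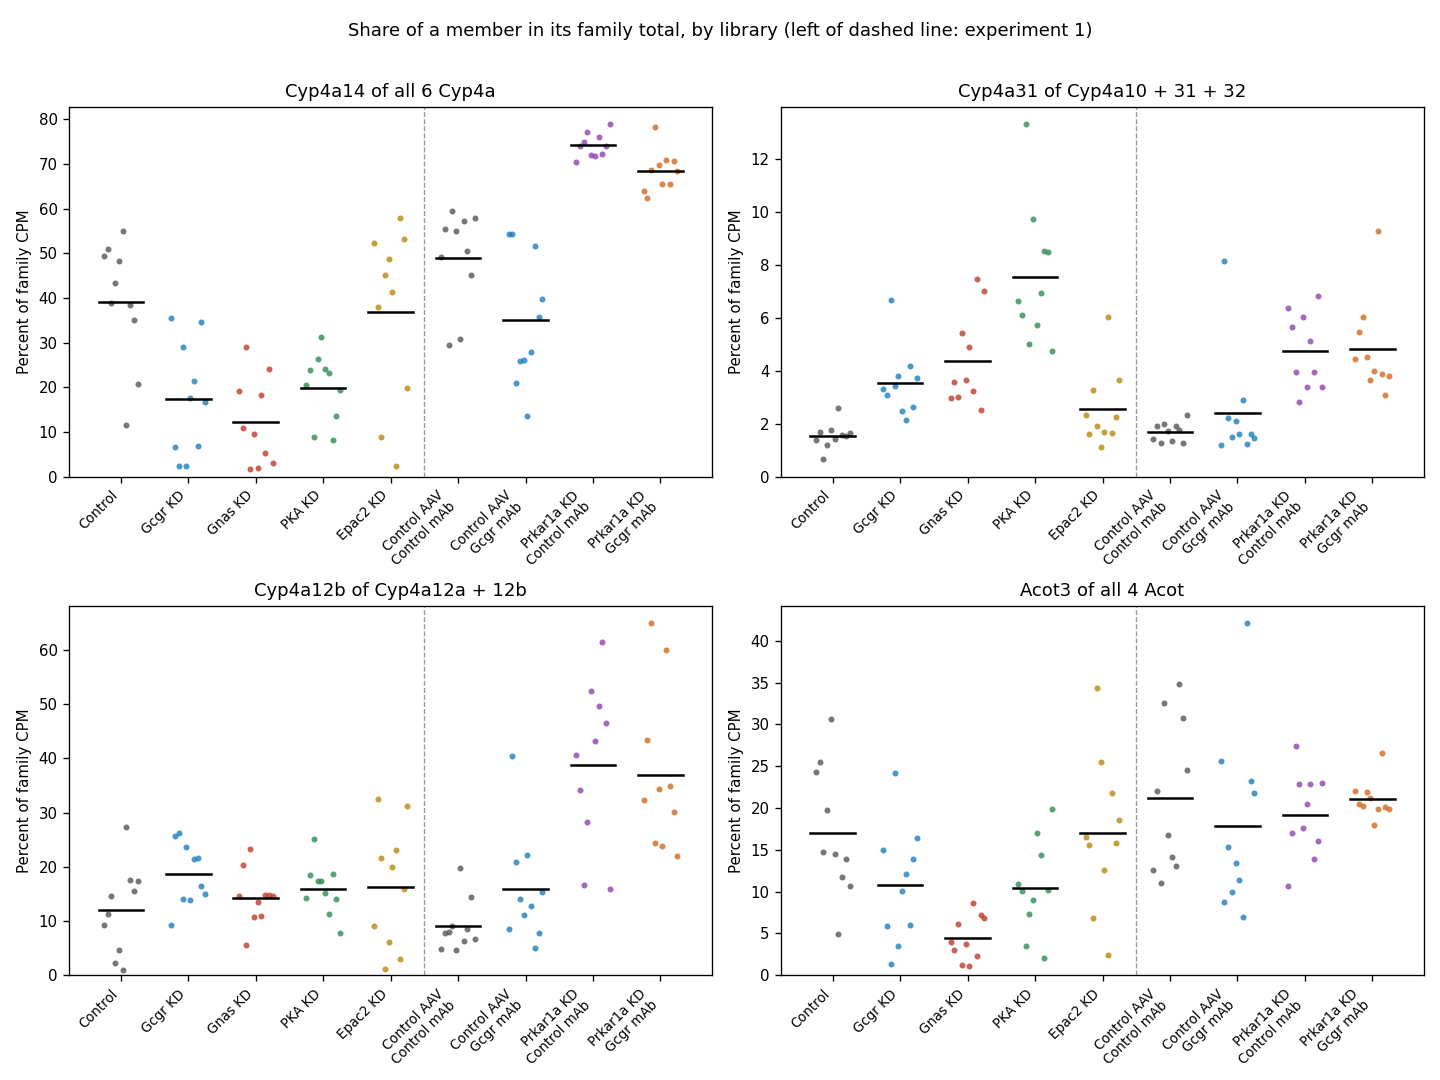
Share of a gene in the summed CPM of its family in every library, 10 points per group with a bar at the mean; experiment 1 is left of the dashed line. Cyp4a14 makes up 70.4% to 78.9% of Cyp4a CPM in the Prkar1a KD libraries with the control antibody against 29.5% to 59.6% in their controls, and Cyp4a31 has its highest mean share of the trio with PKA KD (7.52%).

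Sums over close copies did not always keep the direction of a called copy. With Gnas KD the Cyp4a10, Cyp4a31 and Cyp4a32 sum differed by -1.28 ± 0.37, Acot1 with Acot2 by -1.20 ± 0.27 and Acot3 with Acot4 by -1.79 ± 0.31. With PKA KD the Cyp4a12 sum differed by 1.88 ± 0.27, and with Gcgr KD by 1.10 ± 0.27. With Prkar1a KD the Cyp4a12 sum differed by -1.70 ± 0.51 and Acot1 with Acot2 by 1.28 ± 0.21. For the trio, PKA KD gave 0.38 ± 0.36 and Prkar1a KD -0.22 ± 0.15. The Prkar1a KD value was negative but not large beside its error, although Cyp4a31 was called higher. The counts of Cyp4a31 were few beside those of Cyp4a10, which was not called, and Cyp4a32 was called lower. For Prkar1a KD with Gcgr mAb against neither, the Cyp4a12 sum differed by -0.49 ± 0.50, although Cyp4a12b was called higher (1.48 ± 0.60). These sums are given as a description, with no test.

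Male-biased liver genes were set beside the Cyp4a12 pair, whose own bias between the sexes is well known. Of 15 such genes outside the family, 1 rose and 1 fell with Gcgr KD, 2 rose with Gnas KD, 6 rose and 1 fell with PKA KD, 3 rose and 1 fell of 14 tested with Gcgr mAb, and 2 rose and 9 fell of 14 with Prkar1a KD. Of all genes, 7.23%, 15.2%, 32.4%, 8.19% and 56.2% were called in these comparisons, in that order. The summed CPM of the male-biased genes spanned 5027 to 39050 in the experiment 1 controls, 8936 to 47641 with Gcgr KD and 11211 to 34653 with PKA KD. In experiment 2 it spanned 9814 to 28064 in controls and 9630 to 28910 with Prkar1a KD. Mup20, a male-enriched urinary protein gene, rose with Gcgr KD (1.17 ± 0.28), PKA KD (0.87 ± 0.27), Gcgr mAb (1.41 ± 0.17) and Prkar1a KD (0.98 ± 0.16), the last a treatment in which Cyp4a12a fell. Hsd3b5, a steroid dehydrogenase of male liver, fell with Prkar1a KD (-4.54 ± 1.28, adjusted p = 0.00276). Its median level was low and its spread wide, at 0.304, 1.93 and 146 CPM in controls and 0, 0.142 and 9.68 CPM with Prkar1a KD. Elovl3, a fatty acid elongase, fell with Gcgr KD (-1.42 ± 0.42), PKA KD (-2.02 ± 0.43) and Gcgr mAb (-1.61 ± 0.47). The first and second of these are treatments with a rise of both Cyp4a12 genes. Of 9 female-biased genes tested in experiment 1, 1 rose with Gcgr KD, 2 fell with Gnas KD, and 1 rose and 1 fell with PKA KD. Of 8 tested in experiment 2, 3 rose and 3 fell with Prkar1a KD, with Cyp2a4 at 4.68 ± 0.77 and Cyp2b10 at -5.18 ± 0.91. The part of such variation in the Cyp4a12 results was not tested.

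Other PPARα targets were counted from a list of 22 genes, of which 0 rose and 6 fell with Gcgr KD, 0 and 11 with Gnas KD, 1 and 14 with PKA KD, 1 and 2 with Epac2 KD, 0 and 9 with Gcgr mAb, and 6 and 13 with Prkar1a KD. Of all genes, 7.23%, 15.2%, 32.4%, 4.56%, 8.19% and 56.2% were called in these comparisons, in that order. Fgf21, a fasting hormone, fell by 1.33 ± 0.38 with Gnas KD and by 1.97 ± 0.39 with PKA KD. Vnn1, a pantetheinase, fell with Gnas KD (-0.74 ± 0.20), and Plin2, a lipid droplet protein, with PKA KD (-1.04 ± 0.16). Cyp4a14 itself was called lower in neither PKA KD nor Prkar1a KD and was called higher in the latter. Median changes of the 22 were -0.34 with Gnas KD, -0.37 with PKA KD and -0.42 with Prkar1a KD, against 0.01, 0.01 and 0.02 over all genes.

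The counts of the next lists read against 15.2% of all genes called with Gnas KD, 32.4% with PKA KD and 56.2% with Prkar1a KD. Of 20 genes of peroxisomal beta oxidation, the pathway that takes up dicarboxylic acids, 1 rose and 13 fell with Gnas KD, 2 and 11 with PKA KD, and 3 and 16 with Prkar1a KD, with medians of -0.34, -0.30 and -0.36. Acaa1b, a peroxisomal thiolase, differed by -1.01 ± 0.23, -1.72 ± 0.23 and -1.71 ± 0.16 in these, all called. Of 14 other omega oxidation genes tested, the Cyp4f family and later dehydrogenases among them, 1 rose and 3 fell with Gnas KD, 1 and 3 with PKA KD and 2 and 6 with Prkar1a KD, where 8 of 14 is near the share of all genes. Their medians were -0.06, -0.10 and -0.00. Por, which passes electrons to all microsomal P450s, fell with Gnas KD (-0.85 ± 0.18) and rose with Prkar1a KD (0.64 ± 0.21). Of 11 other acyl-CoA thioesterases and hydrolases tested, 0 rose and 2 fell with Gnas KD, 1 and 1 with PKA KD, and 1 and 4 with Prkar1a KD, led by Acot11 (-1.21 ± 0.21), with medians of -0.14, 0.08 and -0.01. Among 13 PPARα regulators and partners, 0 changed with Gnas KD, 2 rose and 3 fell with PKA KD, and 6 rose and 6 fell with Prkar1a KD, with the coactivator Ppargc1a at 1.76 ± 0.17 and medians of -0.08, -0.14 and 0.07. Of 16 genes of growth hormone and androgen signalling, 1 rose and 3 fell with Gnas KD, 3 and 3 with PKA KD, and 2 and 5 with Prkar1a KD, with medians of 0.08, 0.04 and -0.10. The growth hormone receptor Ghr was among the falls with PKA KD (-0.70 ± 0.08) and Prkar1a KD (-0.53 ± 0.12).

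Libraries of the same group differed widely in these genes, and several of the genes varied together. Each value was centred on its group mean (log2 CPM), and 5 pairs of genes were related over the 50 libraries of experiment 1 and the 40 of experiment 2, 10 relations in all, with permutations within groups and adjustment over the 10. Cyp4a14 and Cyp4a10 varied together, with Pearson's r = 0.95 and Spearman's rho = 0.91 in experiment 1 (permutation p = 1e-05 each, the smallest these permutations can give; adjusted 2.5e-05) and r = 0.61 and rho = 0.62 in experiment 2 (permutation p = 4e-05 and 7e-05, adjusted 5.71e-05 and 0.000117). Within single groups r ran from 0.86 to 0.99 and from 0.25 to 0.92. Without the 2 libraries farthest from the median of Cyp4a14, r was 0.93 and 0.70.

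The thioesterases Acot3 and Acot1 followed Cyp4a14 too, while Acot2 and Acot4 were not among the pairs related. For Acot3, r was 0.87 and rho 0.82 in experiment 1 (adjusted permutation p = 2.5e-05 each; r = 0.82 without the 2 farthest libraries) and 0.60 and 0.54 in experiment 2 (adjusted permutation p = 0.000712 and 0.00206; r = 0.51). For Acot1, r was 0.69 and rho 0.70 in experiment 1 (adjusted permutation p = 2.5e-05 each; r = 0.61) and 0.64 and 0.60 in experiment 2 (adjusted permutation p = 4e-05 and 0.000143; r = 0.60). Within groups Acot3 gave r from 0.80 to 0.93 and from 0.27 to 0.72, and Acot1 from 0.50 to 0.90 and from 0.03 to 0.95.

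Cyp4a12a ran the other way: against Cyp4a14, r was -0.45 and rho -0.42 in experiment 1 (adjusted permutation p = 0.003 and 0.00656; r = -0.46 without the 2 farthest) and -0.51 and -0.47 in experiment 2 (adjusted permutation p = 0.00363 and 0.00504; r = -0.52). It was below 0 within each of the 9 groups, from -0.85 to -0.16 and from -0.62 to -0.14. Cyp4a12a and Cyp4a12b, which share sequence, gave r = 0.56 and rho = 0.61 (adjusted permutation p = 5e-05 and 8e-05; r = 0.55) and r = 0.75 and rho = 0.80 (adjusted permutation p = 2.5e-05 each; r = 0.75), with r within groups of 0.04 to 0.97 and 0.62 to 0.88. Both values of a library share its depth and scaling.

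**Figure D5:**
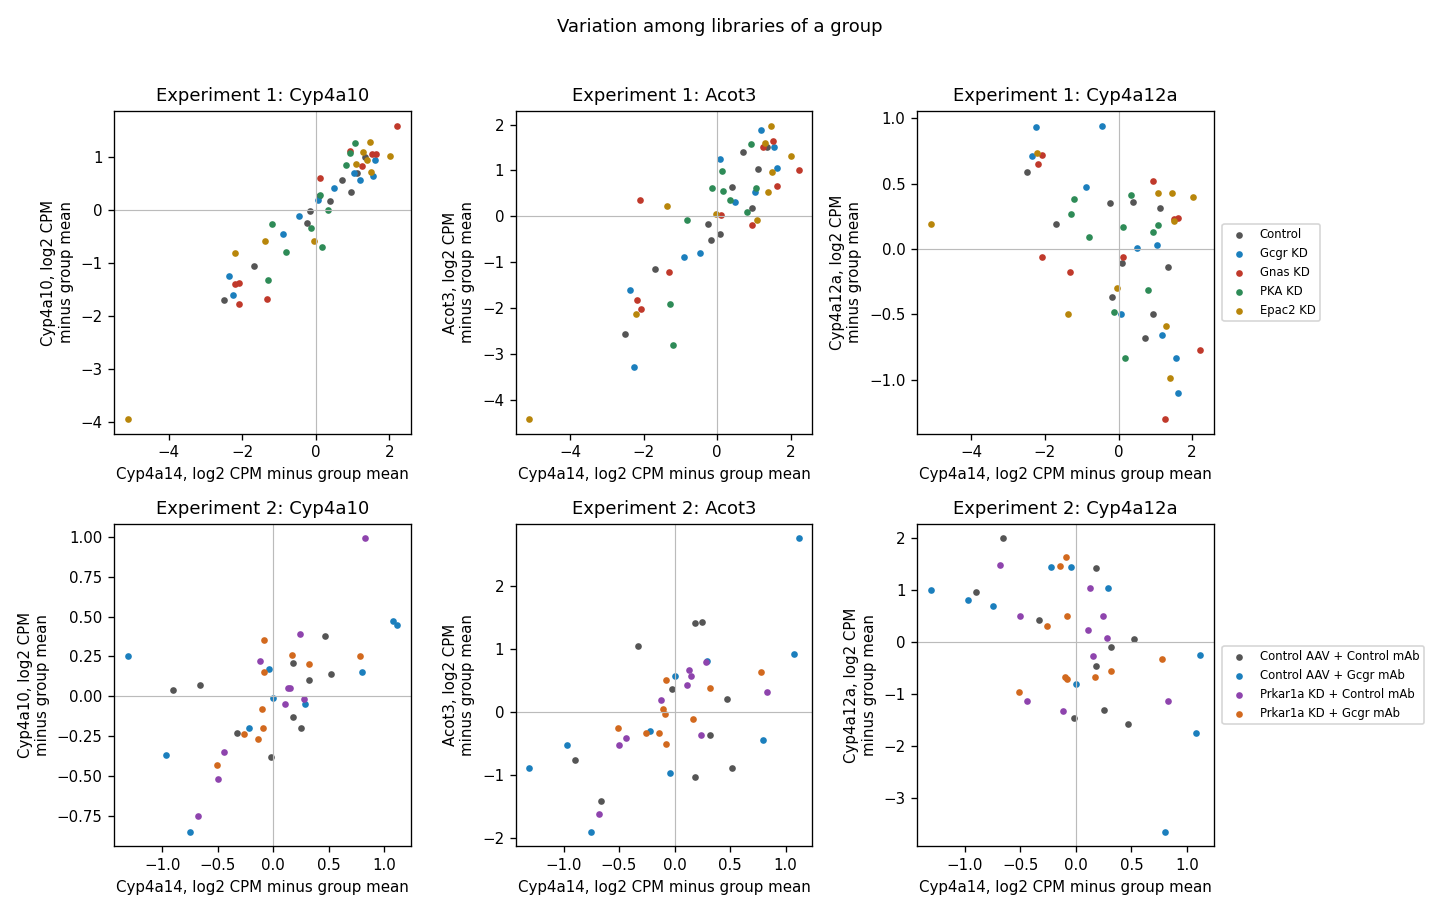
Each point is 1 library, placed by its log2 CPM minus the mean of its group, for Cyp4a14 on the horizontal axis and Cyp4a10, Acot3 or Cyp4a12a on the vertical axis, in experiment 1 (top) and experiment 2 (bottom). Points for Cyp4a10 and Acot3 climb with Cyp4a14 (r = 0.95 and 0.87 in experiment 1), and those for Cyp4a12a descend (r = -0.45); Epac2 KD replicate 7 is the lone point at the far left of the top panels, low for Cyp4a10 and Acot3 but not for Cyp4a12a (0.19).

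Over the 9 group means, the genes whose pattern was nearest to each of 4 members were sought among 12251 named genes outside the list, by the root mean square difference of centred log2 CPM. Nearest to Cyp4a14, which spanned 3.18 log2 units, were Slc16a5 (0.49), Nipal1 (0.50) and Ggt6 (0.54). Nearest to Acot3 (span 3.37) were Nipal1 (0.43), Rdh18-ps (0.49) and Gsta2 (0.51), and nearest to Acot1 were Rdh18-ps (0.27), Setd4 (0.27) and Pir (0.29). Among the nearest to Cyp4a12a (span 3.13) were Ugt2b37 (0.32) and Cenpm (0.36). Cyp4a14 and Acot3 thus had Nipal1 in common, and the Acot1 and Acot3 lists Rdh18-ps. These are descriptions of 9 group means over the whole table, with no test.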

How the data were processed

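RNA-seq of mouse liver was deposited as 2 tables of expected counts, 1 per experiment, with 1 value per Entrez gene and sample, per the file headers. Per the labels' protocols, mRNA was bead-purified and PCR-amplified libraries were strand-specific. The tools bcl2fastq 2.17 and FastQC and the builds GRCm38 and mm10 are named, per the submitters' processing notes. Not given in the sources used here are aligner and counting program, or how reads common to paralogs were treated. The authors' expected counts had a fractional part in 8.23% and 8.13% of entries and were rounded before testing. Of 24475 genes, 24375 matched a symbol, and 0 columns were left unused.

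Genes passing filterByExpr (13574 and 12847) were scaled by TMM and tested with edgeR 4.0.16 (quasi-likelihood, robust, all groups of an experiment, R 4.3.3). There were 13 comparisons. Benjamini-Hochberg adjustment ran over all tested genes within each comparison, and p-values were not adjusted across comparisons. Alternatives were RLE scaling, no filter, DESeq2 1.42.0, limma-voom (limma 3.58.1), only the compared groups, a replicate block, paralogs summed and, added after seeing the data, leaving out 5 libraries whose log2 distance from their group median exceeded 0.55. The fit was also run on simulated counts with a single level of spread for all genes. That setting does not match the wide spread of these members, and no conclusion is drawn from it. Sequence comparisons used GENCODE vM21 transcripts and Biopython 1.88.

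The members and the 8 gene lists were chosen with earlier results of these data known. Named beside the members were the targeted genes, Ppara, up to 3 called genes per direction of each list, and the 3 genes nearest in pattern to each of 4 members, some of which are not reported here.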

Additional observations from a re-analysis of the deposited data

Results flagged for a closer look

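Each gene was checked in each group of 10 libraries for a highest or lowest value set apart from the rest by Dixon's ratio on log2 CPM, at a level where chance alone marks about 1 in 20 groups. Of 90 such groups, 6 held a library of this kind. Cyp4a31 accounted for 3 of them, all in experiment 2 and all high: 34.2 CPM in Control AAV + Gcgr mAb replicate 2 (the others 5.23 to 6.63), 42.1 CPM in Prkar1a KD + Control mAb replicate 9 (the others 8.37 to 16.8) and 32.6 CPM in Prkar1a KD + Gcgr mAb replicate 7 (the others 7.91 to 16.6). The first of these libraries also stood apart across all genes.

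Cyp4a10 was at 11.2 CPM in Epac2 KD replicate 7, a library that stood apart across all genes, against 98.8 to 418 in the others. Acot1 was at 2.72 CPM in Gnas KD replicate 10 (the others 4.72 to 7.08), and Acot4 at 60.1 CPM in Control AAV + Gcgr mAb replicate 8 (the others 20.4 to 34.9).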

How the results depend on the processing

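Of 913 values of a member in a comparison under the alternatives, 879 stayed on their side of the threshold in their direction, 22 lost a call, 12 gained one and 0 called values turned sign. The number of members called moved by more than 1.5 times in 4 cases: Gnas KD against Gcgr KD gave 1 in place of 2 with limma-voom and 1 with the replicate block, Gcgr mAb with the control AAV gave 1 in place of 0 with DESeq2, and Prkar1a KD with Gcgr mAb against neither gave 4 in place of 7 without the filter. The causes were not tested. With paralogs summed, a count of members is not defined and only the sums were given.

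Same-numbered libraries of different groups correlated by 0.025 and 0.021 on average in experiments 1 and 2, against -0.0022 and -0.0017 for other numbers. Single same-numbered pairs ran from -0.39 to 0.57 and from -0.32 to 0.40. Of the libraries, 10 of 50 and 3 of 40 correlated best with their own number. Whether replicate numbers pair the samples was not tested. The replicate block changed 6 of 130 calls, 4 lost and 2 gained. With the block, Cyp4a12b with Gcgr KD (adjusted p = 0.0839) and Cyp4a32 with PKA KD (0.0534) and with PKA KD against Gcgr KD (0.0588) lost their calls, as did Acot3 with Gnas KD against Gcgr KD (0.0929), which limma-voom did not call either (0.35). Acot4 with Prkar1a KD (0.40 ± 0.15, 0.0213) and Acot3 with Prkar1a KD where both sides had Gcgr mAb (0.98 ± 0.39, 0.0347) gained theirs. Counting error is widest where counts are few, and reads shared by paralogs could not be reassigned.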
